A study of Homo sapiens with 8 samples.

Results

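The genes described here carry glucose into the cell and break it down to lactate: *SLC2A1*, *HK1*, *HK2*, *PFKP*, *ALDOA*, *GAPDH*, *PGK1*, *ENO1*, *PKM* and *LDHA*. They were chosen by symbol, and all 10 matched 1 row each among the 58787 Ensembl gene rows of the deposited count table. Polyadenylated RNA was counted in IMR32, an established human neuroblastoma line labelled as neuroblast and wild type. The labels give 2 groups of 4 biological replicates, cells kept for 6 h in CR31B at the IC50 and cells kept in the vehicle alone (0.1% DMSO). CR31B is a rocaglate, a class of compound that clamps the RNA helicase eIF4A, which unwinds messenger RNA leaders for translation. The dose is given only as the IC50, and 1 cell line was used, so the values describe that line.

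In glycolysis, glucose enters through GLUT transporters, hexokinase traps it as glucose 6-phosphate, and phosphofructokinase commits it to breakdown. Aldolase splits the hexose into trioses, from which GAPDH, phosphoglycerate kinase, enolase and pyruvate kinase yield NADH, ATP and pyruvate, and lactate dehydrogenase reduces pyruvate to lactate. Neuroblastoma, like many tumours, is known for a high glycolytic rate, and most of these genes are textbook targets of hypoxia-inducible factors and of E-box binding factors.

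Because most of these genes are known for regulation through E-box (CACGTG) and hypoxia response (core ACGTG) motifs, the 250 bases before each RefSeq start (GRCh38.p14) were searched on both strands. All 10 genes had a window, and 4 of them (*HK2*, *ALDOA*, *GAPDH* and *LDHA*) held CACGTG in at least 1, against 7.73% of 27305 genes. By window it was in 4 of the 23 of these genes, against 6.34% of all 35116 windows. ACGTG was found for 6 of the 10, the same 4 with *PFKP* and *PGK1*, against 21.7% of genes. By window it was in 9 of the 23, against 18.5% of all windows. Every CACGTG also holds ACGTG on both strands, so those counts overlap, and genes with several starts have more windows. The motif TGATGNAA, the core recognised by ATF4 and its partners, was found for *HK1* alone, against 3.89% of genes. It lay in 2 of the 23 windows, against 3.14% of all windows. Those 2 windows overlap and hold the same site. A match is a run of letters and not a measured binding site. The upstream stretches of the 3 genes with the largest called differences below, and of *PGK1*, whose groups overlapped, are shown 5′ to 3′ on the gene's strand, leaving out annotated exon bases. Capitals mark CACGTG, or ACGTG and its complement CACGT in *PGK1*.
HK2, chr2:74834920-74835169, plus strand: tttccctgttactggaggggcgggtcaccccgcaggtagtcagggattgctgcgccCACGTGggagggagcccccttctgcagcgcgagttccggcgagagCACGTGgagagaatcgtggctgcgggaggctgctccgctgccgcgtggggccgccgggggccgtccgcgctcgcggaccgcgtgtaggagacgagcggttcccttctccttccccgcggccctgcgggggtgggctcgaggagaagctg
GAPDH, chr12:6535142-6535263, plus strand: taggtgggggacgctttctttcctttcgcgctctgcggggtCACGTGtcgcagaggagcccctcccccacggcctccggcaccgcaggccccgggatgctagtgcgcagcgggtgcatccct
LDHA, chr11:18394313-18394387, plus strand: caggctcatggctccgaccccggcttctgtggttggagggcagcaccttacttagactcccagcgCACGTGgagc
PGK1, chrX:78103998-78104173, plus strand: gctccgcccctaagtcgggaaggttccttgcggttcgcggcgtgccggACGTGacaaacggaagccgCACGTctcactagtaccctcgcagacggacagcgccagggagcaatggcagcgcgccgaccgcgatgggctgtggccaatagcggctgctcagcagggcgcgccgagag
The *HK2* stretch ends at an internal RefSeq start and holds CACGTG at 2 places, and those of *GAPDH* and *LDHA* each hold it at 1. The full window of that *LDHA* start also holds it at 2 places, 1 of them in the exon bases left out. The *PGK1* stretch holds the shorter ACGTG at 2 places and no CACGTG. Of the 4 genes called below, *HK2* (higher), *GAPDH* and *LDHA* (both lower) held CACGTG, and *SLC2A1* (higher) held neither CACGTG nor ACGTG. Whether the motifs bear on the direction of change was not tested.

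Total counts ranged from 43687828 to 64715535 per library. Per the labels, replicate 1 was read from both fragment ends (paired-end) in each group, and replicates 2 to 4 from 1 end (single-end). Replicate 1 stood apart: the CR31B minus DMSO difference of its pair had the opposite sign to that of replicates 2 to 4 in 84.0% of all tested genes, and in 98.9% of the genes called in replicates 2 to 4. Over all genes, each replicate 1 library lay nearer to the other label than to its own, by the mean chi-square per gene between 2 libraries. It was 10.5 to 19.0 between the library labelled CR31B replicate 1 and DMSO replicates 2 to 4, and 107 to 162 to CR31B replicates 2 to 4. For the library labelled DMSO replicate 1 it was 9.26 to 23.6 to CR31B replicates 2 to 4 and 103 to 125 to DMSO replicates 2 to 4. Among replicates 2 to 4 it was 7.97 to 23.9 within a group and 86.7 to 169.9 between groups, so libraries of unlike layout and unlike label were as near as same-group libraries of 1 layout. The labels were used as given, and what set replicate 1 apart was not tested. Results are therefore given for replicates 2 to 4, for the pair of replicate 1, and for all 8 libraries as labelled. All 10 noradrenergic neuroblast markers reached 1 CPM (read counts scaled to a common library total) in every library. Their summed level in replicates 2 to 4 was 3766 to 4058 CPM with CR31B and 2844 to 2915 CPM with DMSO, and its part in the results below was not tested. Of 8 fibroblast and mesenchymal markers 4 reached 1 CPM in every library, with sums of 473 to 603 and 384 to 466 CPM in those replicates and *DCN* and *COL1A2* under 1 CPM, and their part was not tested either. *CD68*, *CD3E*, *GFAP*, *SOX10* and *KRT18* were at 0. In such bulk RNA, fewer cells of a type and less RNA per cell cannot be told apart.

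In replicates 2 to 4, 4 of the 10 genes passed the test between CR31B and DMSO. *HK2* and *SLC2A1* were higher, and *GAPDH* and *LDHA* were lower. Levels are CPM after TMM scaling, which sets the bulk of genes equal between libraries, so every change is relative to that bulk. The test was edgeR's quasi-likelihood test with Benjamini-Hochberg adjustment over all 16696 genes tested, and a gene was called at an adjusted p under 0.05. In that comparison 41.3% of all genes tested were called, 23.8% higher and 17.6% lower, so 4 of 10 (40%) is near the background. The same 4 genes had groups that did not overlap in CPM, as did 52.1% of all genes tested. The median log2 fold change was -0.06 over the 10 genes and -0.01 over all genes tested.

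As labelled over all 8 libraries, none of the 10 genes passed the test, and percent called over all genes was 0. edgeR called 0 of 16518 genes, with 205 at an unadjusted p under 0.05, and DESeq2 and limma voom also called 0, with 263 and 219. The adjusted p of the 10 genes lay between 0.707 and 0.983, none had an unadjusted p under 0.05, and none had groups of 4 that did not overlap, against 0.660% of all genes tested. The test of whether the effect in replicate 1 differed from that in replicates 2 to 4 called 2 of the 10, *HK2* and *GAPDH*, against 42.5% of all genes (18.4% above 0 and 24.1% below). In that test the spread comes from the single-end libraries alone. The pair of replicate 1 went against the fit of the other replicates in 8 of the 10 genes, all but *PFKP* and *PGK1*, and in 84.0% of all tested genes. Among the 8, *SLC2A1* (-0.0045) and *ALDOA* (0.022, from 11 and 8 counts) had log2 differences near 0 in that pair.

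**Figure D1:**
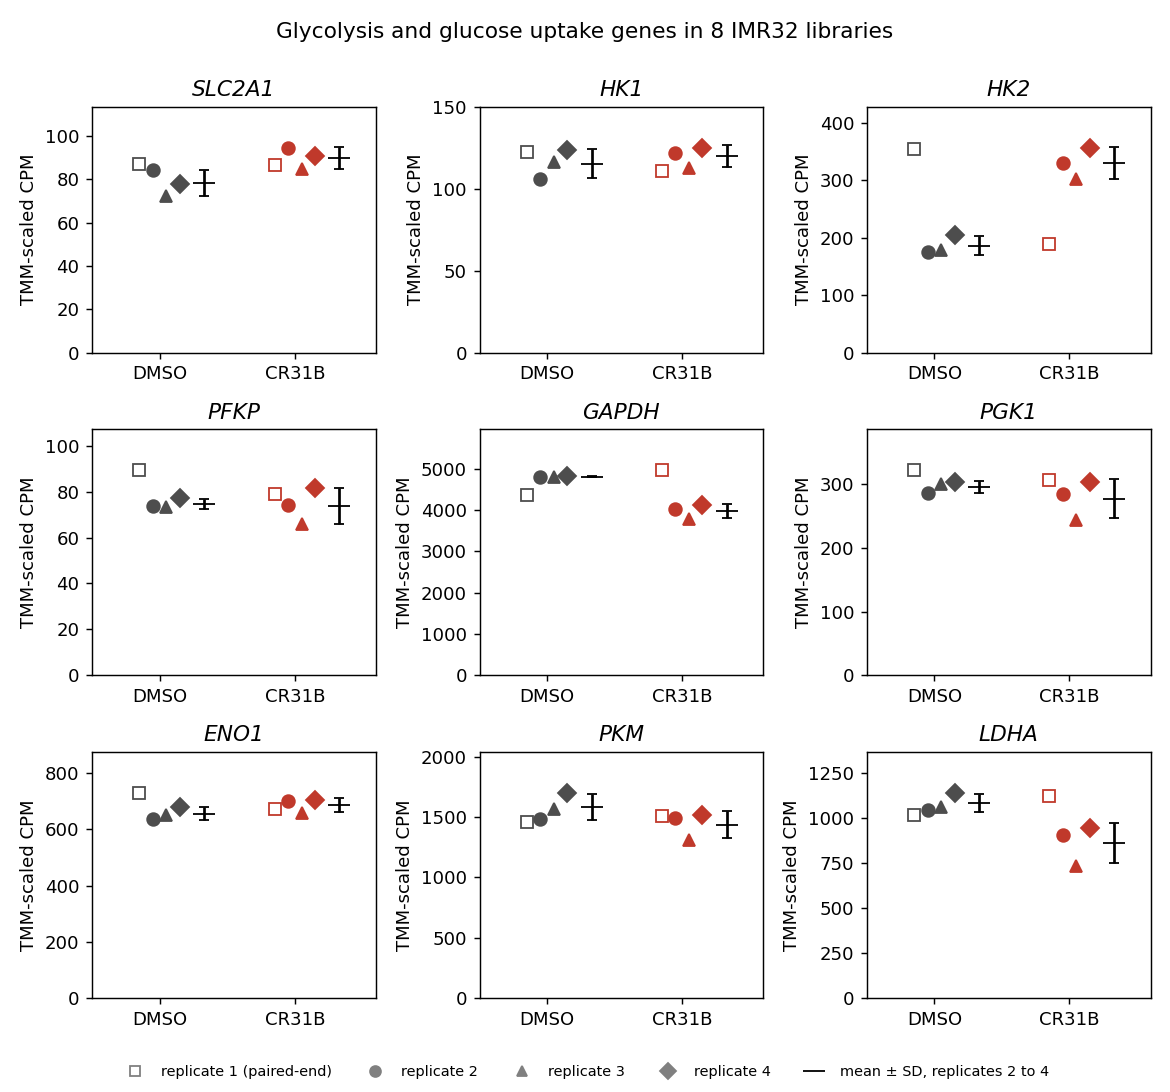
TMM-scaled CPM (y axis, from 0) of the 9 genes other than *ALDOA* in the 4 DMSO and 4 CR31B libraries (x axis), with replicate 1 as open squares and bars for the mean and SD of replicates 2 to 4. *HK2* stands at 301 to 357 CPM in CR31B replicates 2 to 4 and at 175 to 205 CPM in their DMSO counterparts, with both squares on the opposite side.

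*SLC2A1* encodes GLUT1, the main basal glucose transporter (ENSG00000117394, GRCh38 chromosome 1, 42925375 to 42959176, minus strand). It stood at 94.6, 84.7 and 90.6 CPM in CR31B replicates 2, 3 and 4 and at 84.4, 72.2 and 78.1 CPM in the DMSO libraries of the same numbers. The lowest CR31B library lay just above the highest DMSO library, so the groups did not overlap but nearly met. The log2 fold change was 0.20 ± 0.067 (SE, n = 3 per group, edgeR adjusted p = 0.0324), and the gene was higher in 3 of 3 pairs. Replicate 1 had 86.9 CPM with CR31B and 87.1 CPM with DMSO, a pair difference of 0.00 on the log2 scale. This call was lost under upper quartile scaling (log2 fold change 0.11, edgeR adjusted p = 0.180) and total count scaling (0.12, adjusted p = 0.12). It was also lost without CR31B replicate 2 (edgeR adjusted p = 0.0966), CR31B replicate 4 (0.0869), DMSO replicate 3 (0.131) or DMSO replicate 4 (0.0769).

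The neuronal transporter gene *SLC2A3* (GLUT3) was a minor transcript, at 5.17 to 6.95 CPM with CR31B and 4.71 to 5.22 CPM with DMSO in replicates 2 to 4. Its log2 fold change of 0.24 ± 0.13 did not pass (edgeR adjusted p = 0.151). Of the 10 other hexose transporter genes 7 could be tested, 1 higher and 1 lower, against 23.8% and 17.6% of all genes tested. *SLC2A13*, a proton and myo-inositol cotransporter, was higher by 0.27 ± 0.069 on the log2 scale, and only 0.04 (edgeR adjusted p = 0.651) with offsets for GC content and length. *SLC2A4*, the insulin-regulated transporter, was lower by a log2 fold change of -0.84 ± 0.13, at levels of 1.86 to 4.12 CPM.

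*HK1* and *HK2* encode the hexokinases bound to the outer mitochondrial membrane, with *HK2* the inducible form. *HK2* (ENSG00000159399, chromosome 2, 74833981 to 74893359, plus strand) had the largest log2 fold change of the called members. It stood at 331, 301 and 357 CPM in CR31B replicates 2, 3 and 4, and at 175, 178 and 205 CPM in DMSO. Every CR31B library lay above every DMSO library, with means of 330 ± 27.6 and 186 ± 16.7 CPM (SD, n = 3). The log2 fold change was 0.83 ± 0.078 (SE, edgeR adjusted p = 2.03e-05), a fold of 1.77, with pair differences of 0.92, 0.76 and 0.80. In replicate 1 the order was turned, with 189 CPM in the CR31B library and 355 CPM in the DMSO library, a log2 difference of -0.91. The effect in replicate 1 minus that in the others was -1.74 ± 0.16 (SE, edgeR adjusted p = 1.55e-05). With all 8 libraries the log2 fold change was 0.41 ± 0.28 (adjusted p = 0.707).

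*HK1* (ENSG00000156515, chromosome 10, 69269984 to 69401884, plus strand) showed no such shift. It stood at 122, 112 and 125 CPM with CR31B and 106, 116 and 124 CPM with DMSO in replicates 2, 3 and 4, and the groups overlapped. Its log2 fold change was 0.06 ± 0.067 (edgeR adjusted p = 0.537), and it was slightly negative under upper quartile (-0.04) and total count (-0.02) scaling. *HK3* and *HKDC1* were too low to test.

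Within each library, which no scaling affects, *HK2* took 73.0%, 72.8% and 74.0% of the *HK1* and *HK2* counts in CR31B replicates 2, 3 and 4. In DMSO it took 62.3%, 60.5% and 62.4%. The groups did not overlap (73.3% ± 0.645 against 61.7% ± 1.08, SD, n = 3 per group), and the exact two-sided permutation p of 0.1 is the smallest that 3 against 3 allows. In replicate 1 the share was 62.9% with CR31B (95% Wilson interval 62.2% to 63.7%) and 74.4% with DMSO (73.7% to 75.0%). Such intervals cover counting error only. With all 4 replicates the exact permutation p was 0.257.

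**Figure D2:**
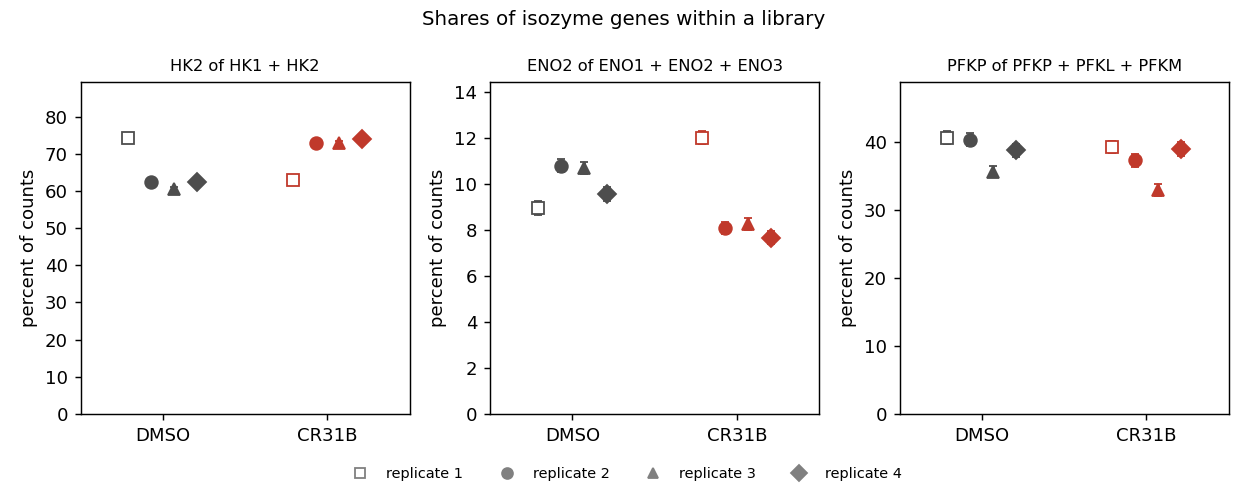
Percent of counts (y axes, from 0) taken by *HK2* among *HK1* and *HK2*, by *ENO2* among the enolases and by *PFKP* among the phosphofructokinases, per library, with 95% Wilson intervals of counting error and replicate 1 as open squares. *HK2* takes 72.8% to 74.0% in CR31B replicates 2 to 4 and 60.5% to 62.4% in DMSO, while the *PFKP* shares of the groups overlap.

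The 5 genes most like *HK2* over the 8 libraries were *CLTC*, *NR1D1*, *C1orf109*, *CUL3* and *IER5*. Likeness was the Euclidean distance between centred log2 CPM profiles, 0.11 for *CLTC* to 0.16 for *IER5*, over 10786 genes with a mean of at least 5 CPM. *CLTC*, the clathrin heavy chain gene, stood at 900.5 ± 63.5 CPM with CR31B and 510.8 ± 37.3 CPM with DMSO (SD, n = 3, replicates 2 to 4). In replicate 1 it had 532 CPM with CR31B and 976 CPM with DMSO. *CUL3*, a ubiquitin ligase scaffold gene, likewise stood at 316 ± 16.6 and 172 ± 8.56 CPM, and in replicate 1 at 175 and 332 CPM. These genes were picked for their likeness, so their values are a description.

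*PFKP* encodes the platelet form of phosphofructokinase (ENSG00000067057, chromosome 10, 3066333 to 3137712, plus strand). It stood at 74.0, 65.7 and 81.4 CPM with CR31B and 73.7, 73.1 and 77.2 CPM with DMSO in replicates 2, 3 and 4. The groups overlapped, with CR31B replicate 3 lowest and CR31B replicate 4 highest. CR31B over DMSO gave a log2 fold change of -0.02 ± 0.073 (edgeR adjusted p = 0.865), and its sign turned with GC and length offsets. In replicate 1 it had 78.8 CPM with CR31B and 89.2 CPM with DMSO. *PFKL* and *PFKM*, the liver and muscle forms, had log2 fold changes of -0.14 ± 0.053 (edgeR adjusted p = 0.0628) and 0.21 ± 0.091 (adjusted p = 0.0903). With the replicate number as a block both passed, *PFKL* at -0.14 (edgeR adjusted p = 0.0391) and *PFKM* at 0.22 (0.00388). *PFKL* passed in 7 of 16 alternatives, among them RLE (-0.15, edgeR adjusted p = 0.0477), upper quartile (-0.23, 0.00470) and total count scaling (-0.22, 0.00822), and *PFKM* also without DMSO replicate 3 (0.30, 0.0265). *PFKP* took 36.4% ± 3.10 of the 3 genes' counts with CR31B and 38.2% ± 2.38 with DMSO (SD, n = 3, exact permutation p = 0.6).

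*ALDOA*, the main aldolase gene of muscle and of most tumours (ENSG00000149925, chromosome 16, 30064164 to 30070457, plus strand), had only 5 to 20 counts per library. It stood at 0.23, 0.17 and 0.11 CPM in CR31B replicates 2, 3 and 4, at 0.19, 0.30 and 0.35 CPM in DMSO, and at 0.19 CPM in both libraries of replicate 1. The groups overlapped, and the log2 fold change of -0.67 ± 0.37 did not pass (edgeR adjusted p = 0.175). In GENCODE release 29, 93.8% of its coding bases are also annotated on the same strand as ENSG00000285043, which itself had only 14 to 49 counts per library. How reads over shared exons were counted is not given in the sources used here, so the *ALDOA* value says little about its transcript. *LDHB* is in the same position, with 93.5% of its coding bases shared and 1.15 to 1.73 CPM. *ALDOC*, the brain form, had no such sharing and stood at 9.44 to 12.6 CPM with a log2 fold change of -0.03 ± 0.11 (edgeR adjusted p = 0.864), positive (0.05) with GC and length offsets.

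*GAPDH*, which oxidises glyceraldehyde 3-phosphate and yields NADH, had the highest level per length of the 10 genes (ENSG00000111640, chromosome 12, 6533927 to 6538374, plus strand). It stood at 4041, 3778 and 4121 CPM in CR31B replicates 2, 3 and 4 and at 4814, 4808 and 4825 CPM in DMSO. The DMSO libraries lay close together, and every CR31B library lay below them, with means of 3980 ± 179 and 4816 ± 8.83 CPM (SD, n = 3). The log2 fold change was -0.27 ± 0.058 (SE, edgeR adjusted p = 0.00367). In replicate 1 the CR31B library had 4964 CPM and the DMSO library 4358 CPM, a log2 difference of 0.19. The effect in replicate 1 minus that in the others was 0.46 ± 0.12 (edgeR adjusted p = 0.0087), and with GC and length offsets 0.29 (adjusted p = 0.0851). *GAPDH* is often used as a reference gene, and its share of the counts of the 9 genes other than *ALDOA* was 50.7% ± 0.994 with CR31B and 54.2% ± 1.25 with DMSO (SD, n = 3, exact permutation p = 0.1). Its 65 pseudogene rows together took 0.336% to 0.459% of the counts of gene and pseudogenes. An opposite-strand gene overlaps 14.2% of its exonic bases, which bears on the value only if counting ignored strand.

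*PGK1*, the first ATP-yielding step, overlapped between groups (ENSG00000102144, chromosome X, 77910739 to 78129296, plus strand). It stood at 285, 243 and 304 CPM with CR31B and at 286, 299.7 and 303 CPM with DMSO in replicates 2, 3 and 4, so CR31B replicate 3 alone lay apart. Its log2 fold change was -0.09 ± 0.076 (edgeR adjusted p = 0.354). It passed under upper quartile scaling (-0.19, edgeR adjusted p = 0.0333) and total count scaling (-0.17, 0.0450). In replicate 1 it had 307 CPM with CR31B and 322 CPM with DMSO.

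*ENO1*, which encodes the ubiquitous enolase, also overlapped (ENSG00000074800, chromosome 1, 8861000 to 8879250, minus strand). It stood at 699.6, 660 and 703 CPM with CR31B and at 635, 652 and 681 CPM with DMSO in replicates 2, 3 and 4. On the log2 scale the fold change was 0.07 ± 0.053 (edgeR adjusted p = 0.327), and it turned to -0.03 under upper quartile and -0.01 under total count scaling. In replicate 1 it had 672 CPM with CR31B and 729 CPM with DMSO. *ENO2*, the neuronal enolase and a clinical marker of neuroblastoma, was the only tested paralog of the 8 that passed, against 41.3% of all genes tested. It fell from 79.5, 80.6 and 74.1 CPM in DMSO replicates 2, 3 and 4 to 63.4, 61.6 and 60.2 CPM with CR31B (log2 fold change -0.34 ± 0.052, edgeR adjusted p = 0.000551). In replicate 1 it had 95 CPM with CR31B and 74.4 CPM with DMSO. *ENO2* took 8.0% ± 0.311 of the 3 enolase genes' counts with CR31B and 10.3% ± 0.682 with DMSO (SD, n = 3, exact permutation p = 0.1), against 12% and 8.96% in replicate 1. *ENO3*, the muscle form, did not pass (0.14 ± 0.068, edgeR adjusted p = 0.119).

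*PKM*, whose splice forms M1 and M2 make pyruvate and ATP, was counted as 1 gene, so the forms are not separated (ENSG00000067225, chromosome 15, 72199029 to 72231822, minus strand). It stood at 1490, 1309 and 1515 CPM with CR31B and at 1488, 1571 and 1700 CPM with DMSO in replicates 2, 3 and 4. The groups overlapped, since CR31B replicates 2 and 4 lay above DMSO replicate 2. The log2 fold change was -0.14 ± 0.073 (edgeR adjusted p = 0.152), and with the replicate block it passed at -0.14 (adjusted p = 0.0335). It also passed under upper quartile scaling (-0.24, edgeR adjusted p = 0.0101), total count scaling (-0.22, 0.0127) and a filter at a mean of 5 CPM (-0.18, 0.0377), and stood at -0.08 without CR31B replicate 3 (0.401) or DMSO replicate 4 (0.466). In replicate 1 it had 1509 CPM with CR31B and 1463 CPM with DMSO.

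*LDHA* encodes the lactate dehydrogenase subunit that favours lactate formation (ENSG00000134333, chromosome 11, 18394388 to 18408425, plus strand). It stood at 905, 736 and 947 CPM in CR31B replicates 2, 3 and 4 and at 1046, 1064 and 1140 CPM in DMSO. Every CR31B library lay below every DMSO library, CR31B replicate 3 farthest, and the log2 fold change was -0.33 ± 0.087 (SE, n = 3, edgeR adjusted p = 0.0122). In replicate 1 the CR31B library had 1123 CPM and the DMSO library 1019 CPM. The effect in replicate 1 minus that in the others was 0.47 ± 0.17 (edgeR adjusted p = 0.0520).

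**Figure D3:**
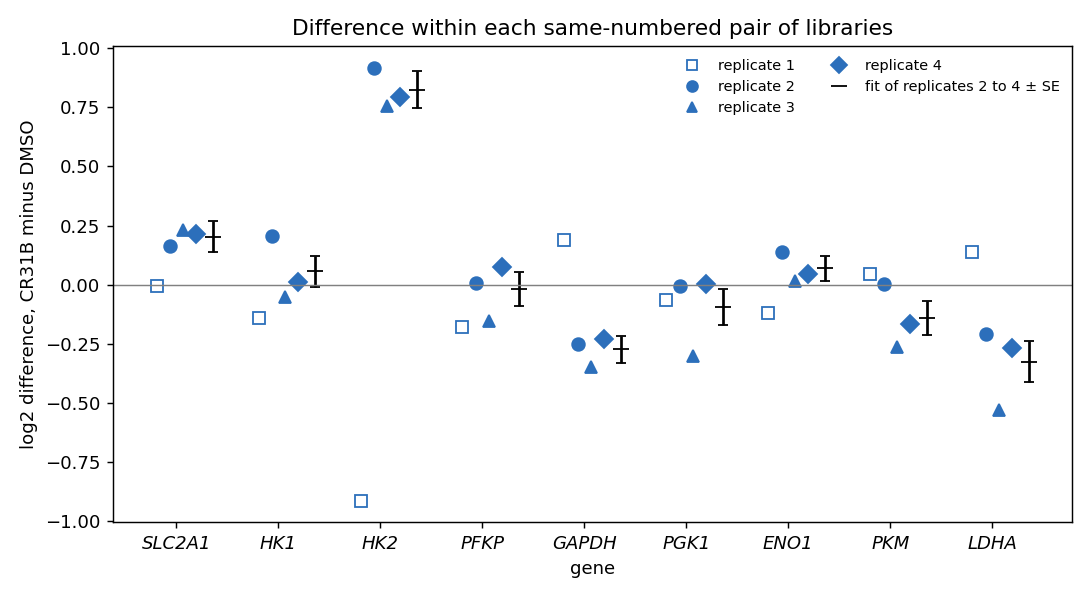
The log2 difference CR31B minus DMSO (y axis) within each same-numbered pair for 9 genes (x axis), with replicate 1 as open squares and black bars for the fit of replicates 2 to 4 ± SE. *HK2* lies at 0.92, 0.76 and 0.80 in replicates 2 to 4 and at -0.91 in replicate 1; *GAPDH* and *LDHA* lie below 0 in the former and above 0 in the latter.

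Per kilobase of exon, a measure that allows genes to be compared, DMSO replicates 2 to 4 gave the order *GAPDH* (1615 ± 2.96 CPM per kb, SD, n = 3), *PKM* (185 ± 12.5), *LDHA* (174 ± 8.05), *ENO1* (124 ± 4.34), *PGK1* (53.7 ± 1.72) and *HK2* (30.7 ± 2.75). *HK1* (18.3 ± 1.44), *SLC2A1* (16.6 ± 1.29) and *PFKP* (15.4 ± 0.453) came last. The ranges of *PKM* and *LDHA* overlapped, as did those of *HK1* and *SLC2A1* and of *SLC2A1* and *PFKP*, and no other neighbours in this order did. Among these 9 genes, those of the triose and pyruvate steps stood highest per length, and those of uptake and the first kinases lowest. Outside the 9, genes of the triose steps varied, with *TPI1* at 353, *PGAM1* at 37.3 and *BPGM* at 11.6 CPM per kb. The length was that of all annotated exons merged, not of the transcripts expressed, so the order between genes is approximate. With CR31B *HK2* stood at 54.4 ± 4.56 CPM per kb, beside *PGK1* at 50.3 ± 5.61. Together the 9 genes took 0.917% ± 0.0188 of all counts with DMSO and 0.767% ± 0.0308 with CR31B in replicates 2 to 4 (exact permutation p = 0.1). In replicate 1 they took 0.817% with DMSO and 0.923% with CR31B.

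The steps of glycolysis outside the 10 genes were lower with CR31B in replicates 2 to 4. All 5 that could be tested of 6 listed (*GPI*, *TPI1*, *PGAM1*, *BPGM* and *ADPGK*) fell, with a median log2 fold change of -0.32, against 17.6% lower among all genes. *GPI*, which turns glucose 6-phosphate into fructose 6-phosphate, fell by 0.33 ± 0.051 on the log2 scale (edgeR adjusted p = 0.000574). *TPI1*, which interconverts the trioses, fell by 0.30 ± 0.054, from 949, 927 and 982 CPM to 793, 736 and 785 CPM. *PGAM1*, phosphoglycerate mutase, fell by 0.42 ± 0.064, from 94.2, 94.7 and 98.5 CPM to 74.8, 64.6 and 75.6 CPM. In replicate 1 *PGAM1* had 94.4 CPM with CR31B and 72.9 CPM with DMSO. The effect in replicate 1 differed from that in the others for all 5 genes, against 42.5% of all genes tested. The members, their paralogs and the other steps of glycolysis, without *ALDOA* and *LDHB*, held 21 tested genes. Of these 2 were higher, 8 lower and 11 not called, with a median log2 fold change of -0.09. The other hexose transporter genes are not among the 21. Among all genes tested 41.3% were called, 23.8% higher and 17.6% lower. As labelled over 8 libraries, none of these genes was called, nor any gene of the lists that follow.

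**Figure D4:**
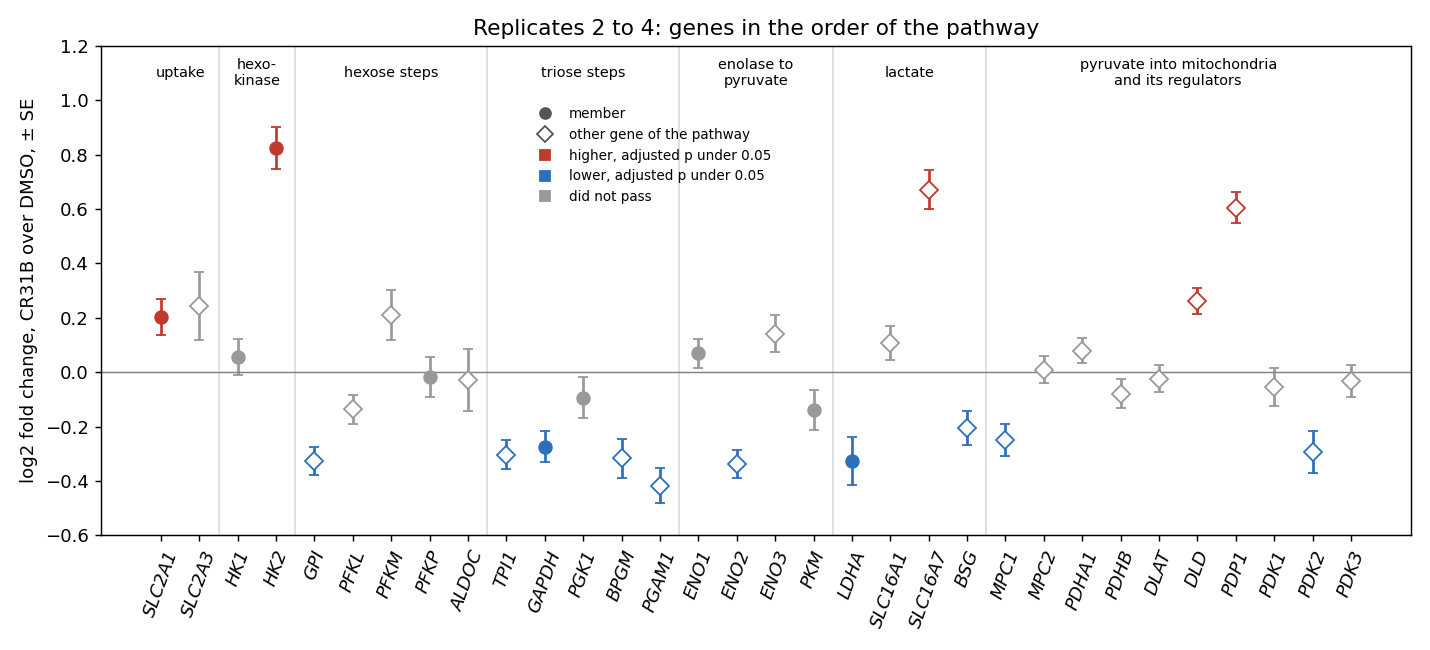
The log2 fold change of CR31B over DMSO ± SE in replicates 2 to 4 (y axis) for genes ordered from glucose uptake to pyruvate oxidation (x axis), with the members as filled circles, red for called higher, blue for called lower and grey for not called. *HK2* stands at 0.83, while *GPI*, *TPI1*, *GAPDH*, *PGAM1*, *ENO2* and *LDHA* lie between -0.42 and -0.27.

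The counts for the lists that follow stand beside 41.3% of all genes tested called, 23.8% higher and 17.6% lower, and nothing particular to a list is read from them. Among regulators of flux, 3 of 8 tested genes were called. *PDP1*, the phosphatase that activates pyruvate dehydrogenase, was higher by 0.60 ± 0.058 on the log2 scale (39.1, 41.2 and 40.7 against 25.7, 27.8 and 26.2 CPM). *PFKFB4*, a bifunctional enzyme that sets fructose 2,6-bisphosphate, fell by 0.66 ± 0.12, at 2.99 to 5.75 CPM, and *PDK2*, a pyruvate dehydrogenase kinase, fell by 0.29 ± 0.077 (edgeR adjusted p = 0.0529 without DMSO replicate 3). Of 7 genes of pyruvate entry into mitochondria, *DLD* was higher (0.26 ± 0.048) and *MPC1*, a subunit of the pyruvate carrier, lower (-0.25 ± 0.058). The *DLD* call was lost with GC and length offsets (0.12, edgeR adjusted p = 0.0692). Of 5 tested lactate transport genes, *SLC16A7* (MCT2) was higher by 0.67 ± 0.071. *BSG*, which encodes a chaperone of some lactate transporters, was lower (-0.20 ± 0.062). The *BSG* call was lost without CR31B replicate 2 (edgeR adjusted p = 0.0528), CR31B replicate 3 (0.0571), DMSO replicate 2 (0.0842) or DMSO replicate 4 (0.0601), and with GC and length offsets (0.0751). *SLC16A1* (MCT1) did not pass (0.11 ± 0.063, edgeR adjusted p = 0.196).

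In the pathways that branch from glycolysis, the pentose phosphate pathway had 5 of 8 genes called, 1 higher and 4 lower. *PGD*, which oxidises 6-phosphogluconate, fell by 0.46 ± 0.063, whereas *H6PD*, which acts in the endoplasmic reticulum, was higher by 0.60 ± 0.13. Of 14 glycogen and hexose branch genes 4 were higher and 2 lower. *PHGDH*, which draws 3-phosphoglycerate into serine synthesis, was higher by 0.87 ± 0.088, at 190, 204 and 228 CPM against 100.4, 115 and 126 CPM, and replicate 1 had 129 CPM with CR31B and 262 CPM with DMSO. *MPI* fell by 0.38 ± 0.057, and *UGP2* was higher by 0.30 ± 0.056 (0.14, edgeR adjusted p = 0.0834, with GC and length offsets). Of 5 tested gluconeogenesis genes 1 was higher and 2 lower. *PCK2*, the mitochondrial phosphoenolpyruvate carboxykinase, was higher by 1.5 ± 0.16, at 16.8, 27.5 and 24.7 CPM against 7.74, 8.72 and 7.94 CPM, while *FBP1* fell by 0.81 ± 0.16 and *G6PC3* by 0.21 ± 0.052. In replicate 1 *PCK2* had 13.8 CPM with CR31B and 29.1 CPM with DMSO.

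Hypoxia response genes outside glycolysis were called in both directions, 4 of 15 higher and 4 lower, with a median log2 fold change of 0.02. *DDIT4* (REDD1, an inhibitor of mTORC1) was higher by 1.71 ± 0.13, at 60.1, 84.6 and 89.2 CPM against 26.1, 23.1 and 22.2 CPM, and in replicate 1 had 32.2 CPM with CR31B and 90.9 CPM with DMSO. *EGLN1*, the oxygen-sensing prolyl hydroxylase, and *KDM3A*, a histone demethylase, were higher by 0.70 ± 0.069 and 0.45 ± 0.062. The 4 lower were *ANKRD37* (-0.89 ± 0.14, edgeR adjusted p = 0.000599), *NDRG1* (-0.84 ± 0.16, 0.00161), *P4HA2* (-0.31 ± 0.11, 0.0413) and *BNIP3* (-0.20 ± 0.072, 0.0432), the first 2 at under 6 CPM in replicates 2 to 4. The calls of *P4HA2* and *BNIP3* were each lost when CR31B replicate 2 (edgeR adjusted p = 0.111 and 0.0530), DMSO replicate 2 (0.126 and 0.153) or DMSO replicate 4 (0.119 and 0.123) was left out. That of *P4HA2* was also lost without CR31B replicate 4 (0.132) and with a filter at a sum of 10 counts. The *BNIP3* call was also lost without CR31B replicate 3 (0.111) and with GC and length offsets (0.0624). Of 5 tested hypoxia factor genes, *ARNT* (-0.13 ± 0.048, edgeR adjusted p = 0.0464) and *HIF1AN* (-0.16 ± 0.052, 0.0321) were lower. *HIF1A* did not pass (0.13 ± 0.064, edgeR adjusted p = 0.122); it passed with the replicate block (0.13, 0.0224) and was at -0.02 with GC and length offsets. The *ARNT* call was lost with a filter at a sum of 10 counts. It was also lost when any library but CR31B replicate 3 was left out (edgeR adjusted p 0.0705 to 0.125). That of *HIF1AN* was lost without CR31B replicate 3 (0.0708), CR31B replicate 4 (0.0909), DMSO replicate 3 (0.0922) or DMSO replicate 4 (0.122).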

How the data were processed

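The authors deposited 1 table of raw read counts per Ensembl gene for the 8 libraries, not normalised. The submitters' processing notes name FastQC 0.11.7, STAR 2.7.2b, edgeR 3.36.0, limma 3.50.3 and GRCh38, with no role or order. The counting tool and annotation are not given in the sources used here. The deposited table's name holds the word "reverse", which may refer to reverse-stranded counting, but no header or protocol explains it. Per the labels' protocols, 250 ng of RNA and 15 PCR cycles went into each library, and a small RNA kit is named although the molecule is polyadenylated RNA. No molecular identifiers are described, so depth (43687828 to 64715535 counts per library) covers counting error only.

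Symbols came from a table of gene names (58434 of 58787 identifiers), coordinates from GENCODE release 29 by identifier (58515 found) and upstream sequences from RefSeq. The tests used edgeR 4.0.16 under R 4.3.3 (filterByExpr, TMM, glmQLFit and glmQLFTest, two-sided, threshold 0.05), over all tested genes. The 3 comparisons were all 8 libraries as labelled with sequencing layout as a covariate, replicates 2 to 4 alone, and the treatment by layout interaction. For differences between same-numbered libraries a prior count of 1 was added before log2 CPM. Shares were tested with an exact permutation test over libraries. The tests were tried on simulated counts. The smallest mean chi-square per gene between libraries was 7.97, so no 2 libraries were counted as 1. Deviations of same-numbered libraries from their group means correlated at 0.21, 0.39 and 0.16 in replicates 2, 3 and 4. No such correlation was computed for libraries of unlike number, so whether the numbers pair the libraries was not tested. The main fit of replicates 2 to 4 had no term for the number, and the replicate block was an alternative. Whether replicates were separate cultures is given only as "biological replicates".

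The genes and lists were chosen with earlier results of these data known. Named were the 10 genes, all paralogs, and from each other list up to 3 genes with the smallest adjusted p among those called with 1 direction in replicates 2 to 4, and the 5 genes nearest to *HK2*. Some genes that this rule names are not reported here by themselves and stay in the counts. *HIF1A*, *SLC16A1*, *BPGM*, *ADPGK* and the hypoxia response genes called lower were named after their values were seen. Alternatives were scaling by RLE, by upper quartile or by total count, 2 further filters (a sum of 10 counts, a mean of 5 CPM), DESeq2 1.42.0, limma voom 3.58.1, loess offsets on GC content and length, the replicate block, no layout term, and leaving out each library.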

Additional observations from a re-analysis of the deposited data

Results flagged for a closer look

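The effect of CR31B differed between replicate 1 and replicates 2 to 4 by the interaction test for *HK2* (-1.73742 on the log2 scale, edgeR adjusted p = 1.55e-05) and for *GAPDH* (0.462864, adjusted p = 0.0087). In both genes the replicate 1 pair went the opposite way to the 3 other pairs.

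The gap of 1 library from the other 3 of its group was taken as a share of the group's range. It passed Dixon's critical value in 6 of 30 groups tested, where chance flags about 1 in 20. Genes and shares come from the same libraries and counts, so these groups are not independent, and 6 of 30 is a description. DMSO replicate 1 lay above the other DMSO libraries in *HK2* CPM (0.831233) and below them in *GAPDH* CPM (0.962714). CR31B replicate 3 lay below the other CR31B libraries in *PKM* CPM (0.877349). For the *HK2* share of hexokinase counts, replicate 1 lay apart with CR31B (0.891301) and with DMSO (0.863314), and for the *ENO2* share of enolase counts with CR31B (0.860797). Of these 6 flags 5 fell on a library of replicate 1.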

How the results depend on the processing

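As labelled over 8 libraries, 0 genes and 0 of the 10 members were called. With replicates 2 to 4 only, the counts were 6901 and 4. Leaving out each library in turn gave 0 to 6920 genes and 0 to 4 members, with 6920 without CR31B replicate 1, 6906 without DMSO replicate 1 and 0 otherwise. Without either replicate 1 library, the layout term absorbs the other, so by construction both fits are that of replicates 2 to 4. In replicates 2 to 4 the gene count ranged from 5582 to 8540, and *HK2*, *GAPDH* and *LDHA* kept their call and direction in all 16 alternatives. The replicate block called 8540 genes, 6900 of them among the 6901, and 5 members; it gained *PKM*, *PFKL*, *PFKM* and *HIF1A* and changed no other call of a named gene. Calls were 57.5% higher under TMM, 40.0% under upper quartile (all-gene median -0.10) and 43.1% under total count scaling. In the interaction test 2 members were called, but 4 under upper quartile and 4 under total count scaling, where calls above 0 were 62.0% and 59.1% against 43.3% and the all-gene medians 0.23 and 0.19; *LDHA* passed in 11 alternatives. Sign changes were confined to genes not called. Under upper quartile and total count scaling, *HK1* was -0.041 and -0.023 and *ENO1* -0.027 and -0.0098. With GC and length offsets, without and with the block, *PFKP* was 0.018 and 0.013, *ALDOC* 0.054 and 0.048 and *HIF1A* -0.015 and -0.016. Leaving out each library moved *HK1* from -0.0029 to 0.117, *PFKP* from -0.093 to 0.060 and *ALDOC* from -0.13 to 0.078. Apart from the left-out libraries, the cause was not tested. *ALDOA* had 5 to 20 counts per library, and why was not tested.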
